A study of Homo sapiens with 6 samples.

Results

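Of 503 mature miRNAs listed in exosome libraries of breast cancer cells, 5 annotations are described here. miR-1246, miR-7704, miR-3648 and miR-7641 were chosen because their reads have been ascribed to small nuclear RNA, ribosomal RNA or GC-rich exons, and miR-4488 because published work on this system describes it. Each was found by its exact name in all 6 tables. 4 of the 5 passed edgeR's filter on low counts, as did 79 of the 503 miRNAs, and miR-4488 did not.

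Exosomes released by MDA-MB-231, an established line from a human triple-negative breast cancer, were profiled by small RNA sequencing. The stable clones carried a hairpin against MCU (shMCU), which encodes the pore of the calcium uniporter in mitochondria, or a control hairpin (shNC), with 3 libraries in each group. The serum in the culture medium was free of exosomes in both groups. The labels do not say whether the libraries of a group came from separate cultures or separate clones, so every p-value reflects only how these libraries scatter, and that scatter may be technical.

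A canonical miRNA is cut from a hairpin by Drosha and Dicer, loaded into an Argonaute protein and directed to its targets by its seed, the bases from position 2 to 8. Short RNA reads can also be fragments of abundant structural RNAs, such as the snRNAs of the spliceosome or the ribosomal RNAs that RNA polymerase I and III transcribe in the nucleus. A read is counted under a miRNA name when its letters match that entry, whichever RNA it came from.

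RefSeq mature sequences on GRCh38.p14 were found for 4 of the 5 annotations, and for 437 of the 503 listed miRNAs. They are shown because 3 of them are unusually rich in G and C and the other matches a stretch of an snRNA. Capitals mark the seed.
hsa-miR-1246: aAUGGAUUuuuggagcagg
hsa-miR-7704: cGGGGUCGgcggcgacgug
hsa-miR-3648: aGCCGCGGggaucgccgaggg
hsa-miR-4488: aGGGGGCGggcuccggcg

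These 4 share no seed with each other or with any other of the 437 sequences. 3 of them were rich in G and C. miR-4488 had a GC content of 88.9% over 18 bases, miR-7704 of 84.2% over 19 bases and miR-3648 of 81% over 21 bases. The median of the 437 was 50% over 22 bases, and 4 of the 437, itself among them, were at least as GC-rich as miR-4488. miR-1246 was ordinary in composition at 42.1%. It was short at 19 bases, a length that 12 of the 437 had or fell below.

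All 19 bases of miR-1246 occurred in RNU2-1, the U2 snRNA that pairs with the branch point of introns during splicing, as bases 94 to 112 of the 191 bases of the GENCODE 29 transcript. The stretch is shown with 10 bases on each side, from chr17:43233856-43233894 on the minus strand of GRCh38, with the shared bases in capitals.
RNU2-1: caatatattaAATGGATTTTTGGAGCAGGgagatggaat

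The shared bases include the run ATTTTTGG, the kind of site at which Sm proteins bind spliceosomal snRNAs. No other of the 437 mature sequences lay whole within any of the 1900 annotated snRNA transcripts, so that such a match was found for 0.229% of them. miR-7704 lay whole within HOXD1, a homeobox gene transcript, as 7.55% of the 437 did within some protein-coding transcript. The longest run that miR-3648 and miR-4488 shared with a protein-coding transcript was 16 and 15 bases. None of the 437 lay whole within any of 52 annotated rRNA transcripts, and the longest run that miR-3648 shared with these was 5 bases. miR-7641 had no sequence and is not among the 437, so the search says nothing of it. The transcripts searched came from GENCODE, which lists no ribosomal RNA gene at the hairpin MIR3648-1. RefSeq places RNA45SN2, a gene for the ribosomal RNA precursor, there. That gene was not searched, so the search cannot decide whether miR-3648 matches the precursor. A match of letters does not say from which RNA the reads came, and that was not tested.

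The positions of the hairpin genes on GRCh38 placed several of them in or beside structural RNA genes. MIR3648-1 lies on chromosome 21 from 8208473 to 8208652, inside the RefSeq gene RNA45SN2 (8205988 to 8219302), which encodes the long precursor of ribosomal RNA. Its first base is position 2486 of that gene, upstream of the 18S gene, in the part of the precursor that is removed during processing. A further copy, MIR3648-2, lies on the same chromosome from 8986999 to 8987178, and the mature sequence shown for miR-3648 is from this copy. No ribosomal RNA gene was annotated there by GENCODE or RefSeq. MIR7641-2 lies on chromosome 14 from 75604209 to 75604261 on the plus strand, within the gene FLVCR2. It overlaps an exon of RNA5SP387, a 5S ribosomal RNA pseudogene. MIR7641-1 lies on chromosome 11 from 104252591 to 104252651 and overlaps RNA5SP348, another 5S pseudogene. MIR7704 lies on chromosome 2 from 176188843 to 176188901, plus strand, and overlaps coding sequence of HOXD1. No other gene was annotated on the same strand at MIR1246 (chromosome 2, 176600980 to 176601052, minus strand) or MIR4488 (chromosome 11, 61508596 to 61508657, plus strand). miR-3648 and miR-7641 each have more than 1 hairpin, and reads of copies with the same mature sequence cannot be told apart.

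Depth was low, between 12859 and 14692 counts per library in shMCU and between 11563 and 47863 in shNC. A count of 0 allows up to 3 counts, equal to 62.7 CPM (counts per 1000000 of the library total) in shNC replicate 1 and to 259 CPM in shNC replicate 2. Intervals on single libraries are exact 95% Poisson intervals, or Wilson intervals for shares, and cover counting error only, since the labels name no molecular identifiers and PCR duplicates are not independent molecules. miRNAs of basal, mesenchymal breast lines (6 listed, among them miR-21-5p and miR-100-5p) held 25.7% to 36.1% of counts in shMCU and 32.0% to 36.6% in shNC libraries. Most of this came from miR-21-5p and miR-100-5p, with means of 190752 and 124882 CPM over all libraries. miR-31-5p, of the same list, did not pass the filter. The 6 listed miRNAs of epithelial cells held 0.0619% to 0.136% in shMCU and 0.0397% to 0.208% in shNC, and 6 of blood cells held 0.0476% to 0.109% in shMCU and 0.0648% to 0.0865% in shNC. On the first principal component of the 79 tested miRNAs, shMCU replicate 3 lay away from the other 5 libraries. The liver miRNA miR-122-5p held 2.36% to 10.4% of counts in shMCU, the highest in that replicate, and 1.23% to 2.33% in shNC. Fold changes were fitted with TMM scaling, under which the median log2 fold change of the 79 tested miRNAs was -0.02, while with library totals alone it was -0.23. Values in CPM follow the library totals, so their order can differ from that of the fitted folds.

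The levels of the 5 annotations are given first for the U2-matching miR-1246, then for those tied to ribosomal RNA or GC-rich exons, and last for miR-4488. No difference between shMCU and shNC passed an adjusted p of 0.05 for any of the 4 tested, where 0% of the 79 tested miRNAs passed and 3.8% had an unadjusted p under 0.05 (edgeR's quasi-likelihood test). By CPM the groups overlapped for each of the 5, while the groups did not overlap for 11.4% of the 79 tested miRNAs, with every shMCU library higher for 1.27% and lower for 10.1%.

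**Figure D1:**
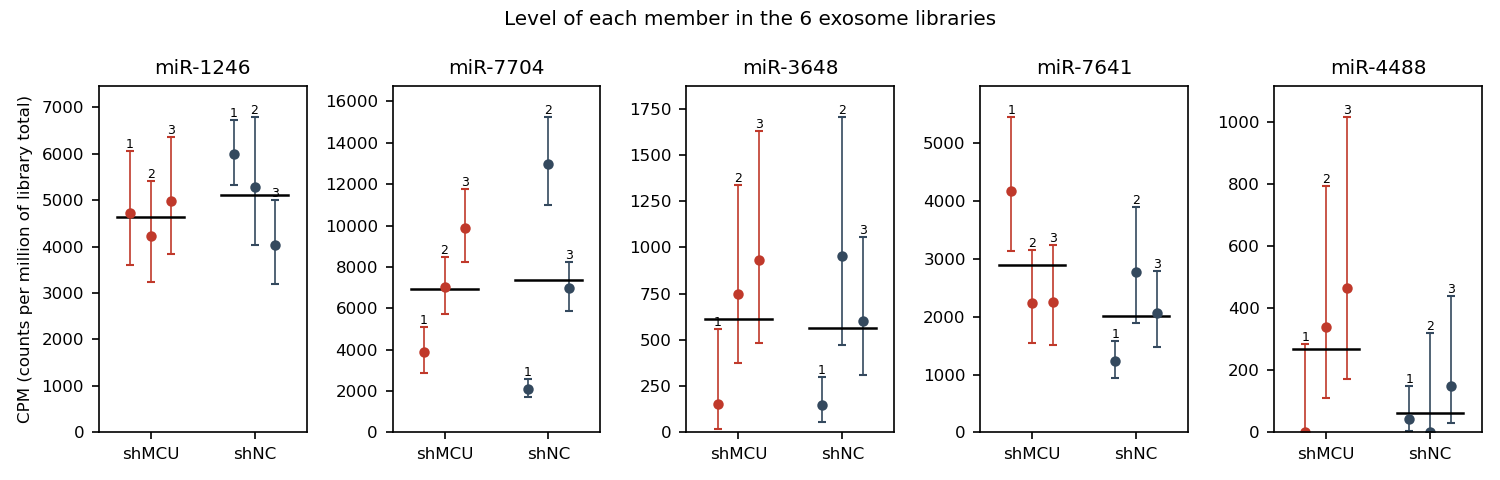
CPM of each annotation (y axis, linear and scaled for each panel) in the 3 shMCU and 3 shNC libraries, with exact 95% Poisson intervals as bars, replicate numbers above them and group means as black lines. The groups overlap in each panel, and replicate 1 of each group is the lowest library of its group for miR-7704 and miR-3648.

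miR-1246, reported in tumour exosomes and serum and often used as a circulating marker, had 4718, 4220 and 4977 CPM in shMCU replicates 1, 2 and 3, against 5996, 5275 and 4023 CPM in shNC replicates 1, 2 and 3. By CPM the highest and the lowest library were both shNC, and every shMCU library lay between them. On TMM-scaled library sizes shMCU replicate 3 was the highest, at 6071 against 5338 in shNC replicate 1. Counts were 61, 62 and 64 in shMCU and 287, 61 and 80 in shNC. It ranked between 25 and 30 among all listed miRNAs in every library. The group means were 4638 ± 385 CPM in shMCU and 5098 ± 998 CPM in shNC (SD, n = 3 each). The fitted fold was 1.06 with a 95% interval from 0.71 to 1.59, the narrowest of the 5, and its adjusted p was 0.92 (edgeR's quasi-likelihood test). The log2 fold change of 0.089 was -0.14 with library totals alone, -0.13 without shMCU replicate 3 and -0.027 without shNC replicate 3, so it had no stable direction.

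miR-7704, annotated at HOXD1, had 3867, 7011 and 9876 CPM in shMCU replicates 1, 2 and 3, against 2110, 12972 and 6991 CPM in shNC replicates 1, 2 and 3. By CPM the lowest and the highest library were both shNC, a 6.15-fold range. On TMM-scaled library sizes shMCU replicate 3, at 12048, stood slightly above shNC replicate 2, at 11988. These values rested on 50, 103 and 127 counts in shMCU and 101, 150 and 139 counts in shNC. Its rank by count moved from 13 in shNC replicate 2 to 47 in shNC replicate 1. Means were 6918 ± 3006 CPM in shMCU and 7358 ± 5440 CPM in shNC (SD, n = 3 each). The fitted fold was 1.15 (95% interval 0.37 to 3.51), and its adjusted p was 0.93 (edgeR's quasi-likelihood test). The interval spans folds well under and well over 1. The log2 fold change of 0.20 was -0.27 without shMCU replicate 3, -0.28 without shNC replicate 1 and 0.81 without shNC replicate 2.

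miR-3648, with its hairpin MIR3648-1 at the ribosomal RNA precursor, was scarcer and followed the same order of libraries. It had 155, 749 and 933 CPM in shMCU replicates 1, 2 and 3, from 2, 11 and 12 counts. In shNC replicates 1, 2 and 3 it had 146, 951 and 604 CPM, from 7, 11 and 12 counts. The 95% interval of the 2 counts in shMCU replicate 1 reached from 18.7 to 559 CPM, and that of the 7 counts in shNC replicate 1 from 58.8 to 301 CPM. Counting error thus leaves the order of these 2 libraries open. Its replicate 1 libraries were thus low in each group, and the remaining 4 libraries lay between 604 and 951 CPM. The fitted fold was 1.47 (95% interval 0.38 to 5.6), and its adjusted p was 0.86 (edgeR's quasi-likelihood test). The log2 fold change of 0.55 was -0.080 without shNC replicate 1, 0.016 without shMCU replicate 3, 1.06 without shMCU replicate 1 and 1.06 without shNC replicate 2.

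miR-7641, at 5S ribosomal RNA pseudogenes, had 4176, 2246 and 2255 CPM in shMCU replicates 1, 2 and 3, against 1233, 2767 and 2062 CPM in shNC replicates 1, 2 and 3. The counts behind them were 54, 33 and 29 in shMCU and 59, 32 and 41 in shNC. The highest library was shMCU replicate 1 and the lowest shNC replicate 1, while the other 4 lay between 2062 and 2767 CPM and overlapped. Its fitted fold, 1.66 (95% interval 0.94 to 2.96), was the sixth largest of the 79 and had the fourth smallest p (unadjusted p = 0.077, adjusted p = 0.70, edgeR's quasi-likelihood test). It was fitted higher in shMCU under each of the 14 alternatives run, where its log2 fold change of 0.73 ranged between 0.43 (shNC replicate 1 left out) and 0.94 (shNC replicate 2 left out). None passed the adjusted threshold.

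miR-4488, which published work ties to MCU and the vesicles of breast cancer cells, gave 0, 5 and 6 counts in shMCU replicates 1, 2 and 3, against 2, 0 and 3 counts in shNC replicates 1, 2 and 3. In CPM these were 0, 340 and 467 in shMCU and 41.8, 0 and 151 in shNC. The 95% intervals reached from 111 to 794 CPM in shMCU replicate 2 and from 171 to 1016 CPM in shMCU replicate 3. In shNC replicate 3 the interval ran from 31.1 to 441 CPM, and in shNC replicate 1 from 5.06 to 151 CPM. The 0 counts allow up to 232 CPM in shMCU replicate 1 and up to 259 CPM in shNC replicate 2, by the limit of 3 counts, and the exact 95% intervals reach 285 CPM and 319 CPM there. The limit in shNC replicate 2 lies above both other shNC values. The groups overlapped. In a fit of all 503 miRNAs with no filter, in which 0.199% passed, its log2 fold change of 1.98 ± 0.86 (SE) did not pass (edgeR's quasi-likelihood test, adjusted p = 0.68, unadjusted p = 0.022). It was positive under each of the 9 alternatives run, from 1.45 without shMCU replicate 3 to 2.95 without shNC replicate 3. The adjusted p ranged from 0.24 to 0.93 over the 8 of them that are fits. The ratio of the summed counts, 4.31 over all libraries, had an exact 95% interval from 1.38 to 15.8. This interval pools the reads of each group, covers counting error only and leaves out the spread between libraries, so it is no test of the groups. That interval held 1 when shMCU replicate 2 (0.938 to 15.3), shMCU replicate 3 (0.661 to 12.5) or shNC replicate 1 (0.752 to 15.9) was left out. Without shNC replicate 3 the ratio was 8.07, with a lower bound of 1.76.

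**Figure D2:**
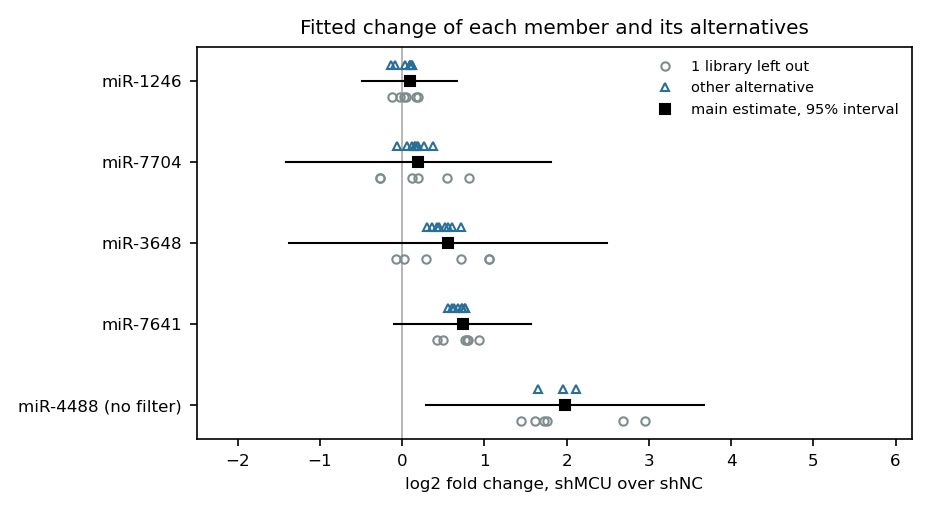
Fitted log2 fold change of shMCU over shNC (x axis) for each annotation, with the main estimate and its 95% interval in black, fits with 1 library left out as circles and the other alternatives as triangles. The estimates of miR-1246, miR-7704 and miR-3648 cross 0 when a library is left out, while those of miR-7641 and miR-4488 stay above 0.

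In all, 4 of the 4 tested were fitted higher in shMCU, beside 48.1% of the 79, and their median log2 fold change was 0.38 beside -0.02. Only 2 of the 4 were fitted higher when library totals served as the scaling, and likewise 2 of the 4 without shMCU replicate 3 or without shNC replicate 1. These counts describe annotations picked with earlier results known and are no test of the group.

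The summed CPM of the 5 annotations was 12916, 14566 and 18508 in shMCU replicates 1, 2 and 3, against 9527, 21967 and 13830 in shNC replicates 1, 2 and 3. The highest and lowest were again both shNC libraries by CPM. On TMM-scaled library sizes shMCU replicate 3 was the highest, at 22577 against 20300 in shNC replicate 2. As a share of the library the sum was 1.53% ± 0.287 in shMCU and 1.51% ± 0.632 in shNC (SD, n = 3 each). The difference in summed CPM, shMCU minus shNC, was 222, below the SDs of 2874 in shMCU and 6317 in shNC. On TMM-scaled library sizes, as used in the fits, the sum was 16850 ± 5250 in shMCU and 14080 ± 5934 in shNC (SD, n = 3 each), a difference of 2770 that is also below both SDs. No p is given for a sum over annotations chosen in this way. Without miR-7704 the sum ran from 7555 to 9049 CPM in shMCU and from 6840 to 8994 CPM in shNC. Its SD was then 771 CPM in shMCU and 1115 CPM in shNC.

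**Figure D3:**
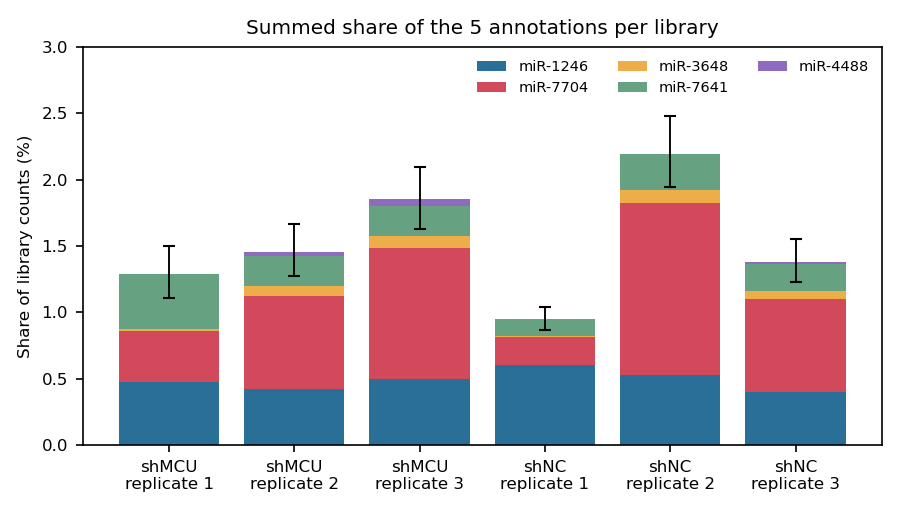
Share of library counts (y axis, percent) taken by the 5 annotations, stacked by annotation, in each shMCU and shNC library, with Wilson 95% intervals of the sum. The sum is lowest in shNC replicate 1 (0.953%) and highest in shNC replicate 2 (2.20%), and the miR-7704 segment varies most.

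The make-up of the sum varied between libraries. miR-7704 made up 29.9%, 48.1% and 53.4% of it in shMCU replicates 1, 2 and 3, against 22.1%, 59.1% and 50.5% in shNC replicates 1, 2 and 3. miR-1246 made up 36.5% in shMCU replicate 1 and 62.9% in shNC replicate 1, and at most 29.1% in the other 4 libraries. miR-7641 took 32.3% in shMCU replicate 1 and between 12.2% and 15.4% in the other 5 libraries. Such ratios within a library do not depend on the scaling. The count of miR-1246 exceeded that of miR-7704 only in the replicate 1 libraries, with 1.22 counts per count of miR-7704 in shMCU replicate 1 (exact 95% interval 0.826 to 1.81) and 2.84 in shNC replicate 1 (2.26 to 3.6), and it lay between 0.407 and 0.602 in the other 4.

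How unevenly the 4 tested annotations were spread over the libraries separated them. The coefficient of variation of TMM-scaled CPM over the 6 libraries was 66.5% for miR-3648 and 57.1% for miR-7704, ranks 6 and 9 of the 79 tested miRNAs, and 38.1% for miR-7641. For miR-1246 it was 15.4%, rank 73, where the median of the 79 was 27.7%. Part of the spread of scarce miRNAs is counting error. The variance of counts around a common share was 67.6 times that of counting alone for miR-7704, the fifth highest ratio of the 79, 10.9 times for miR-7641 and 7.32 times for miR-3648. For miR-1246 it was 1.96 times, below the median ratio of 4.76. These ratios grow with the number of counts, and the summed counts were 280 in shMCU and 390 in shNC for miR-7704, and 187 in shMCU and 428 in shNC for miR-1246.

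**Figure D4:**
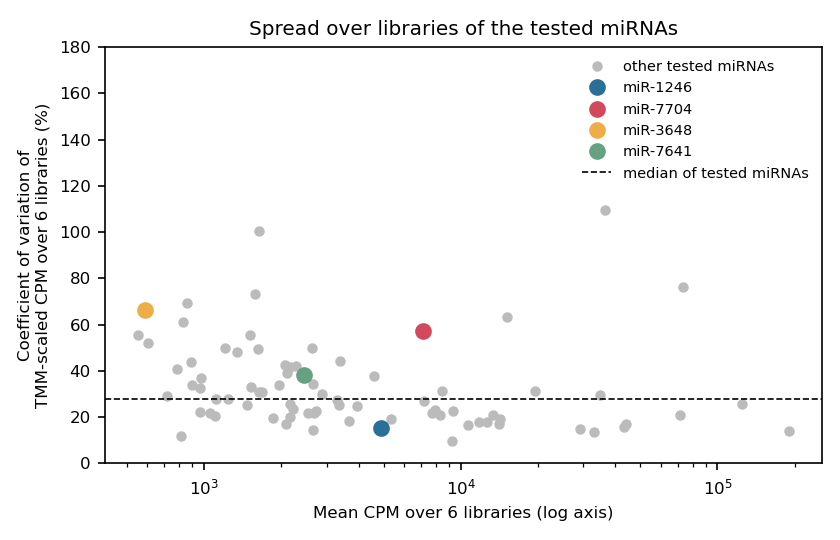
Coefficient of variation of TMM-scaled CPM over the 6 libraries (y axis, percent) against mean CPM (x axis, log scale) for the 79 tested miRNAs, with the 4 tested annotations in colour and the median as a dashed line. miR-3648 (66.5%) and miR-7704 (57.1%) lie well above the median of 27.7%, and miR-1246 (15.4%) below it.

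miR-7704 and miR-3648 varied together over the libraries. Their log2 CPM on TMM-scaled library sizes correlated with Pearson's r = 0.95 (exact permutation p = 0.0014, two-sided, adjusted p = 0.0083 over the 6 pairs computed) and Spearman's rho = 1 (exact permutation p = 0.0028, adjusted p = 0.017) over 6 libraries. Among all 3081 pairs of the 79 tested miRNAs the median r was -0.026, and 0.519% of pairs had an r as high. The order of miR-3648 rested on 2 to 12 counts per library. Its exact 95% intervals overlapped between shMCU replicate 1 (18.7 to 559 CPM) and shNC replicate 1 (58.8 to 301 CPM). They also overlapped between shMCU replicate 3 (482 to 1630 CPM) and shNC replicate 2 (475 to 1702 CPM). Counting error thus leaves the rank order of such neighbours open, and with it a rho of exactly 1. Without shNC replicate 1 and shMCU replicate 1, the libraries farthest from the median, r was 0.85 over the 4 left and did not pass (adjusted p = 0.083, exact permutation test). So few orders of 4 libraries exist that this p could hardly have passed, so it does not show a weaker correlation. The pooled r includes the contrast of these low libraries with the others. With CPM on library totals r was 0.93 and the adjusted p 0.075, and without shMCU replicate 3 r was 0.94 with an adjusted p of 0.050 (exact permutation tests). The p without shMCU replicate 3 is likewise bounded by the small number of orders of the libraries left. Within the 3 shMCU and the 3 shNC libraries taken alone r was 0.98 and 1.00, values on 3 points each. The count of miR-7704 per count of miR-3648 was 25, 9.36 and 10.6 in shMCU replicates 1, 2 and 3 and 14.4, 13.6 and 11.6 in shNC replicates 1, 2 and 3, with exact 95% intervals that overlapped in all 6 libraries.

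The other 5 pairs did not pass over the 6 libraries. The r of miR-1246 was 0.089 with miR-7704, 0.16 with miR-3648 and -0.14 with miR-7641, with an adjusted p of 0.87 for each (exact permutation test). The signs with miR-7704 and miR-3648 turned with CPM on library totals, at -0.16 and -0.28. The r of miR-7641 was 0.50 with miR-7704 and 0.25 with miR-3648 (adjusted p = 0.87 for each, exact permutation test), and shMCU replicate 1, high in miR-7641 and low in both others, lay off the line of the remaining libraries. Within the 3 shNC libraries alone, miR-7641 had r = 1.00 with each of these, and within the 3 shMCU libraries -0.79 with miR-7704 and -0.91 with miR-3648, on 3 points each.

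Over the 4 libraries other than replicate 1 of each group, all pairs were positively correlated, so miR-7704 and miR-3648 were not set apart from the rest there. The r of miR-7641 was then 0.87 with miR-7704 and 0.98 with miR-3648 (adjusted p = 0.083 for each, exact permutation test). With so few orders of 4 libraries, these p-values could hardly have passed either. The r of miR-1246 was 0.85 with miR-7704, 0.99 with miR-3648 and 0.94 with miR-7641, given as descriptions on 4 points.

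**Figure D5:**
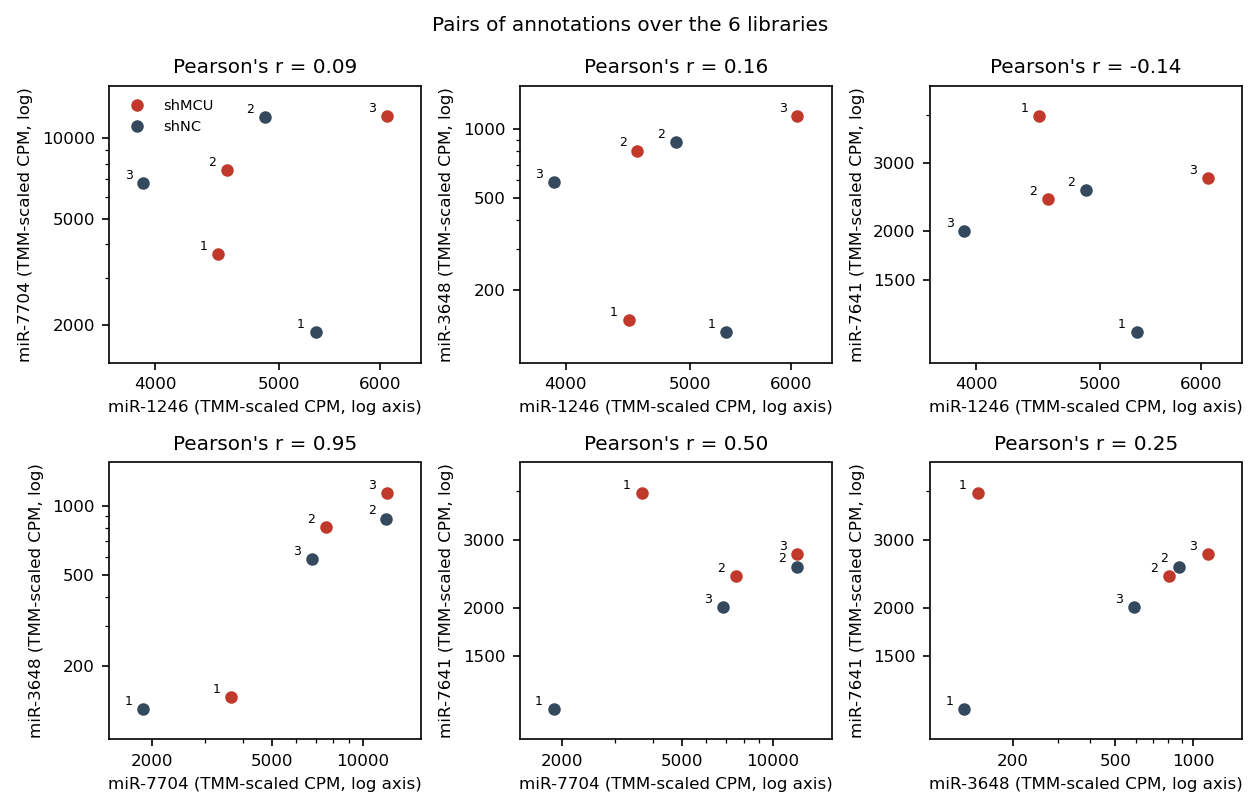
TMM-scaled CPM of each pair of the 4 tested annotations (log axes) in the 3 shMCU and 3 shNC libraries, marked with replicate numbers, with Pearson's r of log2 CPM above each panel. miR-7704 and miR-3648 rise together over the 6 libraries (r = 0.95), and the replicate 1 libraries lie away from the other 4 in each panel with miR-7704 or miR-3648.

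The replicate 1 libraries, low in miR-7704 and miR-3648, differed in depth, with 12930 counts in shMCU replicate 1 and 47863 in shNC replicate 1. The other 4 libraries held between 11563 and 19884 counts. Whether handling shared by these libraries played a part was not tested. GC content was also set beside the pattern. Of the 437 miRNAs with a sequence, 24 had a GC content of at least 75%, and the 21 of them other than miR-7704, miR-3648 and miR-4488 together held 0.0696%, 0.0408% and 0.0700% of counts in shMCU replicates 1, 2 and 3 and 0.0606%, 0.0778% and 0.0503% in shNC replicates 1, 2 and 3. They rested on 6 to 29 counts per library, and miRNAs without a sequence could not be included. miR-6087, from the companion list below, is not among the 21, since it had 17 counts in shMCU replicate 1, where the 21 held 9. Its level was lowest in replicate 1 of each group. The part of GC content in the low levels of replicate 1 was not tested.

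Among the other 78 tested miRNAs, those most like each annotation over the 6 libraries were found by Pearson's r of log2 CPM, as a description. For miR-7704 they were miR-143-3p (r = 0.95), a miRNA of smooth muscle and other mesenchymal cells, then miR-3648 and miR-6087 (r = 0.91). For miR-3648 they were miR-7704, miR-6087 (r = 0.91) and miR-143-3p (r = 0.90). The level of miR-143-3p was 1392 ± 793 CPM in shMCU and 1754 ± 1653 CPM in shNC (SD, n = 3 each). For miR-1246 they were miR-192-5p (r = 0.85), miR-183-5p (r = 0.71) and miR-10a-5p (r = 0.64). For miR-7641 they were miR-7-5p (r = 0.74), let-7f-5p (r = 0.73) and miR-4461 (r = 0.65). In these data 5% of all pairs reached an r of 0.84 or more.

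A companion list named 34 other annotations whose reads have been ascribed to nuclear structural RNA, tRNA or GC-rich exons. Of these, 12 were listed in the tables, and 11 of the 12 had at most 7 counts in every library. The exception, and the only annotation of the list to pass the filter, was miR-6087, with 1315, 2927 and 2566 CPM in shMCU replicates 1, 2 and 3 and 898, 3978 and 4174 CPM in shNC replicates 1, 2 and 3. Again replicate 1 was the lowest library of each group. Its fitted fold was 0.90 (95% interval 0.31 to 2.61), and its adjusted p was 0.93 (edgeR's quasi-likelihood test). The next by summed count were miR-1291, which overlaps a snoRNA, with 21 counts over all libraries, and miR-4508 with 16, miR-3687 with 11 and miR-3607-3p with 10. For miR-3687, whose reads have been ascribed to the ribosomal RNA precursor, the counts were 0, 0 and 6 in shMCU replicates 1, 2 and 3 and 1, 3 and 1 in shNC replicates 1, 2 and 3. None of these 4 passed in the fit with no filter (adjusted p from 0.68 to 0.90, edgeR's quasi-likelihood test).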

How the data were processed

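Each library has its own table of read counts for mature miRNAs, deposited by the authors as whole numbers with no normalization. Bowtie and the hg19 build are named in the submitters' processing notes. Not given in the sources used here are Bowtie's version and settings, how reads with several matches were treated, the counting tool and the miRNA release. Multi-mapping rules bear directly on annotations that share letters with structural RNAs. The 5 annotations and the lists were chosen with earlier results of these data known.

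All 6 libraries were fitted together in edgeR 4.0.16 (R 4.3.3) by the robust quasi-likelihood F test, with TMM scaling, filterByExpr at a minimum count of 10 and group as the sole term. P-values were adjusted by Benjamini-Hochberg over the 79 miRNAs tested, at a threshold of 0.05. The code was tested on simulated data. miR-4488 was fitted without the filter. Correlations used log2 CPM with a prior count of 2 and exact permutation over the 720 orders of the libraries. Named were the 5 annotations, the 3 most alike of each that was tested, and up to 5 of a companion list by count. Alternatives were DESeq2 1.42.0, limma 3.58.1 voom with quality weights, other scalings and filters, a replicate block and each library left out. Sequences came from RefSeq (GRCh38.p14), transcripts and hairpin loci from GENCODE 29 (GRCh38), with overlapping genes from both. These are not the build of the alignment, and no coordinates were converted.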

Additional observations from a re-analysis of the deposited data

How the results depend on the processing

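None of the 4 tested annotations passed the adjusted threshold under the alternatives run (15 for miR-7704, 14 for each of the others), nor did miR-4488 in its 8 alternative fits. Over all tested miRNAs the count past it was 0, and 1 with DESeq2 (miR-122-5p) or with no filter (miR-375, of the epithelial list, log2 fold change 4.39). Among the unfiltered fits behind miR-4488 it was 2 with library totals alone (miR-122-5p, miR-375), 4 without shMCU replicate 1 and 1 without shMCU replicate 2 or 3, and 0 in the other 4. Signs turned for 3 annotations. miR-1246 had a log2 fold change of -0.14 with library totals alone and -0.089 with no filter, and from -0.13 to 0.20 with a library left out. miR-7704 had -0.058 with library totals alone and from -0.28 to 0.81 with a library left out, and miR-3648 from -0.080 to 1.06. The cause was not tested. The difference in summed CPM, 222, was 2770 on TMM-scaled library sizes, 7108 with the 10 most abundant miRNAs out of the denominator, which is then smaller by construction, and from -2568 to 3651 with a library left out. Correlations of miR-1246 with miR-7704 and with miR-3648 were -0.16 and -0.28 with CPM on library totals, -0.43 and -0.36 without shMCU replicate 3, and -0.46 and -0.29 without the 2 libraries farthest from the median of miR-1246, but 0.85 and 0.99 without replicate 1 of each group, farthest from the medians of miR-7704 and miR-3648. That of miR-3648 with miR-7641 was -0.11 with CPM on library totals.

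Replicate numbers did not pair the libraries by the criterion used: deviations of same-numbered libraries from their group means correlated at 0.16, -0.35 and 0.082, and 1 of 6 libraries correlated best with their own number. With a replicate block the log2 fold changes were 0.089 for miR-1246, 0.37 for miR-7704, 0.37 for miR-3648, 0.77 for miR-7641 and 1.65 for miR-4488, and 0 miRNAs were called among the 79. Depth limits miR-4488 and miR-3648 most, with at most 12 counts in any library.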
